A study of Mus musculus with 48 samples.

Results

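The Pax genes encode transcription factors that share a paired DNA-binding domain. The 6 genes *Pax2*, *Pax3*, *Pax5*, *Pax6*, *Pax7* and *Pax8* were followed here in single cells of the mouse hypothalamus at E18.5, shortly before birth. They were chosen by name, with earlier results of these data known. The count table held 5 of these 6 genes among its 16510 genes, and *Pax5* was not analysed here. The table also held *Pax1* and *Pax9*, which were given the same tests, and *Pax6os1*, an RNA gene antisense to *Pax6*. The study asked how cells of the hypothalamus are specified when PRC2, the complex that deposits the repressive histone mark H3K27me3, is lost.

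Control embryos carried 2 floxed *Eed* alleles without Cre (*Eed* fl/fl). *Eed-cKO* embryos carried the same floxed alleles and 1 copy of *Sox1-Cre* (*Eed* fl/fl; *Sox1-Cre*/+). *Eed* encodes a core subunit of PRC2, and *Sox1-Cre* is an insertion of Cre into the *Sox1* gene that is active in the whole early neural tube. Only the *Eed-cKO* embryos carried the insertion, so that its own effect and that of the deletion cannot be told apart. Both groups were on a mixed B6:129S1 background. The hypothalamus was split into pieces before dissociation, and an embryo gave 1 to 4 libraries. In all, 22 control libraries came from 6 embryos (2 female, 4 male) and 26 *Eed-cKO* libraries from 9 embryos (5 female, 4 male). Libraries of an embryo were summed, and the embryo was the replicate throughout. The library names began with 4 codes in control and 6 other codes in *Eed-cKO*, and some embryos shared a code. The labels do not say what the code stands for. No code occurred in both genotypes, so that its effect and that of genotype cannot be told apart.

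Pax proteins act early, in regions of the embryo from which single organs and cell types form. *Pax2*, *Pax5* and *Pax8* form a subgroup that marks the boundary of midbrain and hindbrain, and *Pax2* and *Pax8* also mark the optic stalk, inner ear, kidney and inhibitory interneurons of the dorsal spinal cord. *Pax3* and *Pax7* form a second subgroup, of the dorsal neural tube and of muscle precursors. *Pax6* is needed for the eye and for forebrain progenitors, and it stays on in some neurons and astrocytes of the forebrain. *Pax1* and *Pax9* act in the skeleton and the pharyngeal pouches and have no known place in the brain. Genes of this kind often carry H3K27me3 in tissues where they are silent. The mark was not measured in these cells.

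Cells were kept as neural (All-Hypo) after non-neural clusters had been set aside. The study set non-neural cells aside by matching single cells to a reference, so that the cells removed need not be the same. All-Hypo held 6838 control cells with a median of 4767 UMIs and 6455 *Eed-cKO* cells with a median of 4426 UMIs, a UMI being 1 counted transcript molecule. An embryo held 5055844 to 7308083 UMIs in control and 627508 to 5787326 UMIs in *Eed-cKO*, with embryo 9 the shallowest. In 101 cases the same cell barcode occurred in more than 1 library, which touched 5 of the 186 *Eed-cKO* cells with a *Pax2* UMI, none of the 88 with *Pax8* and 3 of the 277 with *Pax6*. *Eed* itself was at 32.2 ± 1.75 CPM (SD, 6 embryos) in control and at 23.2 ± 2.52 CPM (9 embryos) in *Eed-cKO*, CPM being UMIs of a gene scaled to the same library total, and the embryos did not overlap. The fall of -0.47 ± 0.08 on the log2 scale (SE) had an adjusted p of 0.000226 in edgeR's quasi-likelihood test. The libraries read the 3′ ends of transcripts, outside the floxed exons, so that this level does not check the deletion itself. In the non-neural cells *Eed* was at 27.9 to 48.8 CPM over the control embryos and at 7.17 to 130 CPM over the *Eed-cKO* embryos, and whether these cells kept the gene was not tested. The hypothalamic genes *Nkx2-1* (134 ± 20.8 CPM in control, 173 ± 45.2 CPM in *Eed-cKO*) and *Six3* (196 ± 50.02 and 157 ± 25.8 CPM) were present in both groups. The dissections also held a cluster with the thalamic markers *Tcf7l2*, *Gbx2* and *Lhx2*, of 337 control and 36 *Eed-cKO* cells.

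In the mm10 genome the Pax genes of the table lie far apart. *Pax2* is at chr19:44756045-44837871 on the plus strand and *Pax8* at chr2:24420560-24475599 on the minus strand. *Pax6* is at chr2:105668900-105697364 and *Pax1* at chr2:147361925-147393295, both on the plus strand. *Pax3* (chr1:78101267-78197134) and *Pax7* (chr4:139737062-139833528) are on the minus strand, and *Pax9* (chr12:56691767-56712822) is on the plus strand. Exons of *Pax8* share 367 bases with *Gm13415* on the opposite strand, those of *Pax9* 189 bases with *Slc25a21*, and those of *Pax1* 183 bases with *AI646519*. Whether strand was used in counting is not given in the sources used here, so that reads in these stretches cannot be told apart. *Pax6* and *Pax6os1* share no exon base in the annotation used.

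The 250 bases upstream of the start are printed below for the 3 Pax genes with the most UMIs gained in *Eed-cKO* and for *Pax6*, the Pax gene of the control hypothalamus, since promoters rich in CG pairs are the usual sites of PRC2. The sequences are from RefSeq on GRCm38.p6, run 5′ to 3′ on the strand of the gene, and lie in no exon, and capitals mark each CG.
Pax2, chr19:44755502-44755751, plus strand: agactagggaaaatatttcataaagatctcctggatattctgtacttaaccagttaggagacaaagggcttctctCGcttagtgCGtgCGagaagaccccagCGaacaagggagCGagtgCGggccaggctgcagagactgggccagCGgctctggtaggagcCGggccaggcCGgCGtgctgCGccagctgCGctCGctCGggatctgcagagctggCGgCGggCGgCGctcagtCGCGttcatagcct
Pax8, chr2:24475600-24475849, minus strand: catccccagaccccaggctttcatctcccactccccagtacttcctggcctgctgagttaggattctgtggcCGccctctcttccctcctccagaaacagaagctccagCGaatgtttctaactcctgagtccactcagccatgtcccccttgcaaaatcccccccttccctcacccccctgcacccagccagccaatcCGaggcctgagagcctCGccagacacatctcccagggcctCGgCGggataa
Pax1, chr2:147364744-147364993, plus strand: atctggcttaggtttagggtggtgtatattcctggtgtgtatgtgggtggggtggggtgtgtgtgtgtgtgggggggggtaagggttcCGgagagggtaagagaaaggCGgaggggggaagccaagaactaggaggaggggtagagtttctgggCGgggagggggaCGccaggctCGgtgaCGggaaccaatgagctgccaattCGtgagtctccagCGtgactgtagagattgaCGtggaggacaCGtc
Pax6, chr2:105668646-105668895, plus strand: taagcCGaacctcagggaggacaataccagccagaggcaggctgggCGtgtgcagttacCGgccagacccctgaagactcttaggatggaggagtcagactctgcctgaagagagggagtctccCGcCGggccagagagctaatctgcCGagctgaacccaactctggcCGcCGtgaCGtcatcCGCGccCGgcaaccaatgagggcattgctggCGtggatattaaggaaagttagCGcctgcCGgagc
CG reads the same on both strands. The *Pax2* window holds 20 CG pairs, and 17.9% of 32851 windows of this length in the table hold as many. The *Pax6* window holds 15 (27.3% of windows hold as many), the *Pax1* window 10 (37.8%) and the *Pax8* window 6 (50.4%), and the median window holds 6. *Pax2* has 2 further start sites in that table, with windows that hold 5 (chr19:44746351-44746600, 55.6% of windows hold as many) and 25 CG pairs (chr19:44756656-44756905, 10.7%), and *Pax6* has 1, which holds 15 (chr2:105682213-105682462). The window with 25 and the further *Pax6* window overlap exons of their genes and are not printed.

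*Pax2* was close to absent from control and present in every *Eed-cKO* embryo. Control embryos held 0, 0.161 and 0.902 CPM of *Pax2* at the lowest, median and highest, from 9 UMIs in all. *Eed-cKO* embryos held 3.89, 6.14 and 9.73 CPM, from 240 UMIs. Every *Eed-cKO* embryo was above every control embryo. The means were 0.237 ± 0.337 CPM (SD, n = 6) and 6.67 ± 1.82 CPM (n = 9), a log2 fold change of 4.66 ± 0.41 (SE) with an edgeR adjusted p of 3.02e-08, in a comparison in which 28.6% of all genes tested passed the threshold of 0.05. All 26 *Eed-cKO* libraries held a *Pax2* UMI (2 to 24 each), against 5 of 22 control libraries. In sums over all cells of an embryo, fewer positive cells and less RNA per cell cannot be told apart.

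*Pax8*, the close relative of *Pax2*, moved in the same direction. Only 1 control embryo held *Pax8* UMIs, 6 in all, at 0.902 CPM. The *Eed-cKO* embryos held 1.53, 4.81 and 6.84 CPM at the lowest, median and highest, from 150 UMIs, and again none overlapped with control. The means were 0.150 ± 0.368 CPM and 4.36 ± 1.85 CPM, a log2 fold change of 4.56 ± 0.55 with an edgeR adjusted p of 2.65e-06. *Pax8* UMIs were found in 25 of 26 *Eed-cKO* libraries and in 2 of 22 control libraries.

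The few control UMIs came mostly from 1 embryo. Control embryo 4 held 6 of the 9 *Pax2* UMIs and all 6 *Pax8* UMIs, and a single deep cell of 17486 UMIs held 2 of the former and 4 of the latter. Without control embryo 4 the log2 fold change was 5.75 for *Pax2* and 7.35 for *Pax8*, both still past the threshold (edgeR adjusted p = 3.74e-09 and 5.12e-07). None of the 9 control cells with a UMI of either gene held a Hox UMI.

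In this comparison 3594 of 12558 genes passed, with 1776 higher and 1818 lower in *Eed-cKO*. Non-overlap of the embryos with *Eed-cKO* higher, as for *Pax2* and *Pax8*, was found for 478 genes or 3.81%. Both Pax genes passed the filter on low values, a median of 1.5 log2 CPM over embryos, only through the *Eed-cKO* embryos, so that they had to differ to be tested. With a filter on total UMIs alone, 15771 genes were tested and 26% passed the threshold, and *Pax2* (4.66) and *Pax8* (4.57) kept their fold changes on the log2 scale.

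*Pax6* was the Pax gene with the most UMIs in control, and its level was lower on average in *Eed-cKO* without passing the threshold. Control embryos held 16.4, 27.9 and 46.0 CPM at the lowest, median and highest, and *Eed-cKO* embryos 6.81, 14 and 38.2 CPM. The ranges overlapped, and in *Eed-cKO* embryo 7 at 38.2 CPM was followed by embryo 5 at 22.8 CPM. The means were 29.0 ± 12.4 CPM (1021 UMIs) and 17.2 ± 9.24 CPM (599 UMIs). The log2 difference was -0.70 ± 0.27 with an edgeR adjusted p of 0.0562 (unadjusted 0.0167). Without embryo 7 of *Eed-cKO* it was -0.91 with an adjusted p of 0.00634, and without control embryo 6 it was -0.51 with an adjusted p of 0.181. It passed in 4 other settings, among them cells thinned to 2000 UMIs (-0.91), at edgeR adjusted p-values of 0.0186 to 0.0438. *Pax6os1* held 8 UMIs in control and 5 in *Eed-cKO*.

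*Pax3* and *Pax7*, of the dorsal neural tube, stayed near the floor of detection and fell below the filter, as did *Pax1* and *Pax9*. They were tested with an exact two-sided permutation test of CPM over the embryos, whose smallest possible p is 0.0002, adjusted over these 4 genes. *Pax3* had no UMI in control and 17 in *Eed-cKO*, in 7 of 9 embryos, at 0.575 ± 0.749 CPM (exact permutation test, adjusted p = 0.0149). With control set at 3 UMIs over all its embryos, the pooled *Pax3* level was 6.16-fold higher, a value without the spread between embryos. Embryo 7 alone held 2.41 CPM, and the mean without it was 0.346 CPM (adjusted p = 0.0249 in the same permutation test). *Pax7* held 7 UMIs in control and 5 in *Eed-cKO*, at 0.193 ± 0.239 and 0.283 ± 0.490 CPM (exact permutation test, adjusted p = 0.843). The ratio of its pooled levels was 0.776 with a counting interval of 0.194 to 2.84, so that a difference in either direction was not detectable at this depth. All 7 control *Pax7* UMIs were in glutamatergic cells.

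*Pax1* and *Pax9* are a pair of related genes outside the list, and both appeared in *Eed-cKO*. *Pax1* went from 2 UMIs, all in 1 control cell, to 171 UMIs, or from 0.0652 ± 0.160 to 4.72 ± 2.11 CPM, with every *Eed-cKO* embryo above every control embryo (exact permutation test, adjusted p = 0.0016). *Pax9* went from no UMI to 30 UMIs in 8 of 9 embryos, at 0.859 ± 0.561 CPM (adjusted p = 0.00559 in the same permutation test). Its pooled level was 10.9-fold higher with control set at 3 UMIs.

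**Figure D1:**
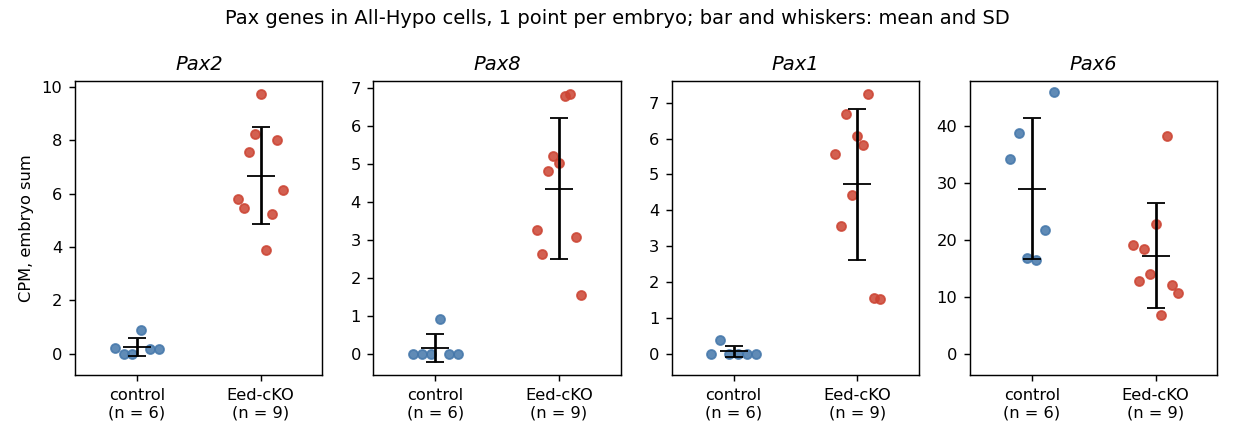
Levels of *Pax2*, *Pax8*, *Pax1* and *Pax6* per embryo in All-Hypo cells. Each panel plots CPM (vertical axis) for the 6 control and 9 Eed-cKO embryos, with 1 point per embryo and the mean ± SD beside the points. *Pax2* reaches 0.902 CPM in control and starts at 3.89 CPM in Eed-cKO, while the *Pax6* ranges of 16.4 to 46.0 CPM and 6.81 to 38.2 CPM overlap.

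In single cells *Pax2* and *Pax8* were rare and low. A *Pax2* UMI was found in 186 *Eed-cKO* cells, or 2.88% of All-Hypo (95% exact binomial interval 2.49 to 3.32%), and 83.9% of these held 1 UMI. The control share was 8 of 6838 cells, or 0.117%. Among the non-neural cells, set beside them as a comparison for free RNA, the share was 0.208% (1 of 480) in *Eed-cKO* and 0.287% (1 of 348) in control, at median depths of 3702.5 and 3958.5 UMIs. The interval of the control non-neural share, 0.00727 to 1.59%, is too wide to place the All-Hypo control share above or below background. Whether the few control UMIs are expression or free RNA was not tested. *Pax8* was found in 88 *Eed-cKO* cells, or 1.36% (1.09 to 1.68%), against 2 control cells (0.0292%) and 1 *Eed-cKO* non-neural cell (0.208%). One *Pax8* cell held 11 UMIs. Intervals cover counting error only.

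*Pax6* was read in the same way, by share of cells and by UMIs per cell, with no test of either. The share of cells with a *Pax6* UMI was 4.87% of All-Hypo in control and 4.29% with *Eed* deleted. Averaged over embryos the shares were 4.93 ± 1.14% and 4.29 ± 2.06%, and in cells thinned to 2000 UMIs they were 3.70 ± 1.17% and 2.38 ± 1.28%. Positive cells held 3.07 *Pax6* UMIs on average in control and 2.16 in *Eed-cKO*, and those with a single UMI made up 42.3% and 65.0%. The non-neural shares were 2.30% in control and 0.625% in *Eed-cKO*, which also differed, and their part in the *Pax6* values was not tested.

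All-Hypo cells were then split by transmitter. *Slc17a6* encodes the vesicular glutamate transporter of these neurons, and *Slc32a1* the vesicular GABA transporter. Cells with a UMI of the first alone were Glut, those with the second alone GABA, those with both Glut/GABA, and the others neither. Control held 2707 Glut, 1467 GABA, 316 Glut/GABA and 2348 other cells, and *Eed-cKO* 2296, 676, 1120 and 2363. Median depth was 6293, 5100, 7220 and 2899 UMIs in control and 5124.5, 4175, 6346.5 and 3104 UMIs in *Eed-cKO* in that order.

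*Pax2* was higher in *Eed-cKO* in each of the 4 classes. Control held too few *Pax2* UMIs in any class to reach the 15 needed for a fit. *Pax2* therefore entered each fit only through *Eed-cKO*, and had to be higher there to be tested. In Glut cells it was at 0.149 ± 0.365 CPM in control and 3.41 ± 1.69 CPM in *Eed-cKO* (log2 3.96 ± 0.64, edgeR adjusted p = 0.000119), where 11.2% of genes passed the threshold. In GABA cells it went from 0.193 ± 0.474 to 7.19 ± 4.72 CPM (4.35 ± 0.68, adjusted p = 1.13e-05), where 11.1% of genes passed. In Glut/GABA cells it went from no UMI to 133 UMIs, at 15 ± 5.80 CPM with 8.13 CPM in the lowest embryo (adjusted p = 4.71e-06), where 4.29% of genes passed. In cells with neither gene it went from 0.512 ± 0.398 to 3.90 ± 2.99 CPM (2.67 ± 0.67, adjusted p = 0.00594), where 20.6% of genes passed.

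*Pax8* was higher in 3 classes and was too low to test in GABA cells, which held 6 UMIs in control and 5 in *Eed-cKO*. It had no control UMI in the other 3 classes, so that it too had to be higher in *Eed-cKO* to be tested there. In *Eed-cKO* it reached 10.1 ± 6.61 CPM in Glut/GABA cells (92 UMIs, edgeR adjusted p = 0.00034), 4.22 ± 2.22 CPM in cells with neither gene (34 UMIs, adjusted p = 0.000255) and 1.46 ± 2.09 CPM in Glut cells (19 UMIs, adjusted p = 0.00465). The Glut/GABA calls did not hold when 2 UMIs of a transmitter gene were asked of a cell, at a log2 fold change of 6.02 for *Pax2* (edgeR adjusted p = 0.0575) and 5.67 for *Pax8* (0.134). In the other classes each gene that was called stayed past the threshold under that setting.

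*Pax6* fell in GABA cells and did not pass the threshold in the other classes. Control GABA cells held 29.8, 60.5 and 114 CPM at the lowest, median and highest embryo, and *Eed-cKO* GABA cells 0, 6.54 and 64.3 CPM. The ranges overlapped through *Eed-cKO* embryos 2, 5 and 7. The means were 67.3 ± 35.9 and 19.9 ± 25.4 CPM (log2 -1.65 ± 0.38, edgeR adjusted p = 0.00229). The genotypes filled the clusters unequally, and its part in this fall was not tested: cluster 2, with most of the control *Pax6* UMIs, held 1123 control and 129 *Eed-cKO* cells, and within it the difference of -0.71 did not pass (adjusted p = 0.415). In Glut cells the levels were 6.82 ± 4.90 and 8.24 ± 6.60 CPM (0.30 ± 0.43, adjusted p = 0.721). In Glut/GABA cells they were 38.7 ± 39.6 and 26.5 ± 21 CPM (-0.40 ± 0.38, adjusted p = 0.691), and in cells with neither gene 41.4 ± 22.7 and 25.1 ± 16.7 CPM (-0.72 ± 0.34, adjusted p = 0.139). Control embryo 6 held 118 CPM in Glut/GABA cells, where no other control embryo passed 34.4 CPM. In *Eed-cKO* embryo 1, 41 of its 82 *Pax6* UMIs were in a single Glut/GABA cell.

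*Pax1* was called higher in all 4 classes, from 29 UMIs in Glut to 92 UMIs in Glut/GABA cells of *Eed-cKO*, and *Pax9* in cells with neither gene (24 UMIs against none, edgeR adjusted p = 0.000929). *Pax3* and *Pax7* could not be tested in any class. Of the 17 *Pax3* UMIs, 10 were in cells with neither transmitter gene.

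**Figure D2:**
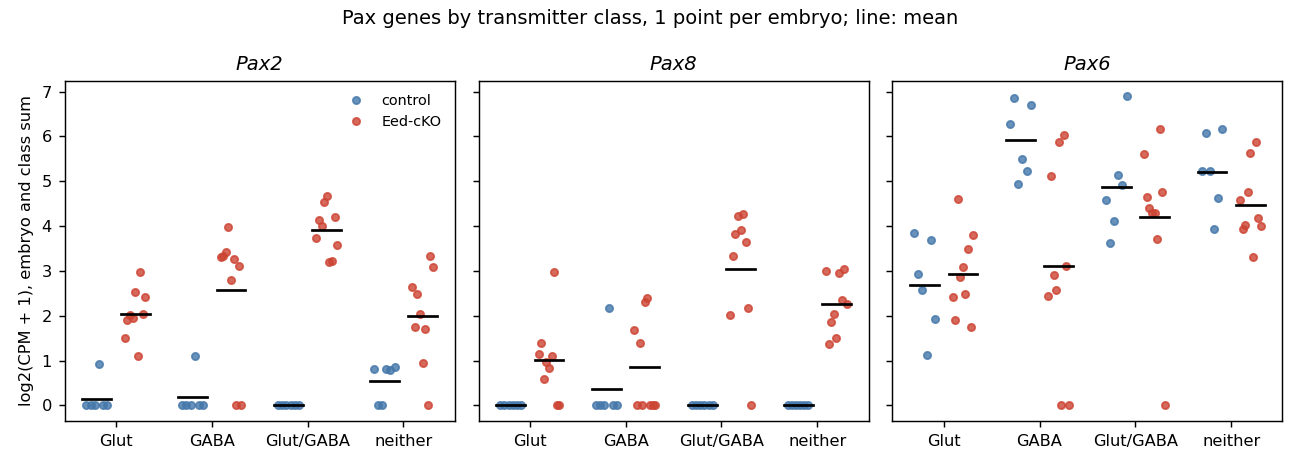
Levels of *Pax2*, *Pax8* and *Pax6* by transmitter class. The vertical axis is log2(CPM + 1) of the embryo sum, and the classes Glut, GABA, Glut/GABA and neither are on the horizontal axis, with 1 point per control or Eed-cKO embryo and the mean marked. *Pax2* and *Pax8* are highest in Eed-cKO Glut/GABA cells, at means of 15 and 10.1 CPM, and *Pax6* is highest in control GABA cells, at 67.3 CPM.

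Classes were compared within each genotype, with the embryo as a block because the sums of an embryo share an animal. In control, *Pax6* was higher in GABA than in Glut cells (log2 3.25 ± 0.26, edgeR adjusted p = 8.41e-14), a contrast in which 5.94% of genes passed the threshold. It was also higher in Glut/GABA than in Glut cells (2.48 ± 0.39, adjusted p = 2.78e-05), where 0.888% passed. Glut/GABA and GABA cells differed by -0.76 ± 0.31, which did not pass (adjusted p = 0.332), where 1.2% of genes did. By level, the order was GABA, neither, Glut/GABA and Glut, and GABA and Glut/GABA were not separated by the test.

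In *Eed-cKO* the class with both transmitter genes led for *Pax2* and *Pax8*. Against Glut cells, Glut/GABA cells held more *Pax2* (2.20 ± 0.29, edgeR adjusted p = 1.07e-08), *Pax8* (2.85 ± 0.41, adjusted p = 1.71e-07) and *Pax6* (1.71 ± 0.30, adjusted p = 2.68e-05), where 6.3% of genes passed. Against GABA cells, *Pax8* was higher (2.70 ± 0.59, adjusted p = 0.000822) while *Pax2* (0.93 ± 0.34, adjusted p = 0.0847) and *Pax6* (0.41 ± 0.35, adjusted p = 0.612) did not pass, where 6.98% of genes did. GABA cells held more *Pax2* (1.27 ± 0.40, adjusted p = 0.0415) and *Pax6* (1.3 ± 0.39, adjusted p = 0.0284) than Glut cells, where 6.17% of genes passed, and *Pax8* did not differ by the test (0.15 ± 0.76, adjusted p = 0.964). The order of *Pax2* levels was Glut/GABA, GABA, neither and Glut, with the first pair not separated.

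Most of these calls did not hold in cells of equal depth, and the cause was not tested. When each cell was thinned to 2000 UMIs before it was classed, no *Eed-cKO* contrast of the 3 Pax genes passed the threshold. Glut/GABA against Glut was then 0.73 for *Pax2* (edgeR adjusted p = 0.736), 2.17 for *Pax8* (0.0821) and 0.43 for *Pax6* (0.852), over 8 embryos. In control only 2 embryos kept at least 10 cells of each class, and *Pax6* was still higher in GABA than in Glut cells (1.87 ± 0.50, adjusted p = 0.0227).

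The *Pax6* difference between classes was itself compared between genotypes, a test added after the class values were seen. On log2(CPM + 1), GABA minus Glut was 3.23 ± 1.29 in the 6 control embryos and 0.19 ± 2.49 in the 9 *Eed-cKO* embryos, which differed by -3.04 (exact permutation test, adjusted over 3 contrasts, p = 0.0318). GABA minus Glut/GABA was 1.03 ± 1.25 and -1.09 ± 1.72, which differed by -2.13 (adjusted p = 0.0318 in the same permutation test). Glut/GABA minus Glut was 2.19 ± 1.83 and 1.28 ± 2.21, with no difference passing (adjusted p = 0.438, permutation test). Leaving out any of 9 of the 15 embryos brought the first and second of these p-values above 0.05, to at most 0.0794.

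Cells were clustered without the Pax and Hox genes, so that these did not define the clusters. Cluster 1, led by *Tfap2b*, *Lamp5* and *Gata3*, held 1326 *Eed-cKO* and 31 control cells. *Hoxd10*, *Hoxc10*, *Hoxc13*, *Hoxa10* and *Hoxa9* were also among its leading genes. Cluster 1 took 154 of the 240 *Pax2* UMIs (64.2%), 84 of the 150 *Pax8* UMIs (56.0%) and 216 of the 599 *Pax6* UMIs (36.1%) of *Eed-cKO*. Its *Pax2* level was 19.7 ± 7.61 CPM over the 9 embryos and its *Pax8* level 11.6 ± 5.82 CPM. The 31 control cells held no *Pax2* or *Pax8* UMI among 234783 UMIs.

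Outside cluster 1, *Pax2* and *Pax8* were spread over several kinds of cell. Cluster 8, led by *Pmaip1*, *Zic4* and *Gfra1* (339 *Eed-cKO* and 233 control cells), held 25 *Pax2* and 12 *Pax8* UMIs in *Eed-cKO*. Cluster 13, astrocyte-like with *Gfap*, *Aqp4* and *Slc1a3*, held 368 *Eed-cKO* cells and 5 control cells, and carried 16 *Pax2*, 23 *Pax8* and 112 *Pax6* UMIs. It also held 11 of the 17 *Pax3* UMIs and 14 of the 30 *Pax9* UMIs. The cycling progenitor-like cluster held 2 *Pax2* and 8 *Pax8* UMIs in 211 *Eed-cKO* cells. Clusters 1 and 13 are almost all of 1 genotype, so that the kind of cell and the genotype cannot be told apart there.

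**Figure D3:**
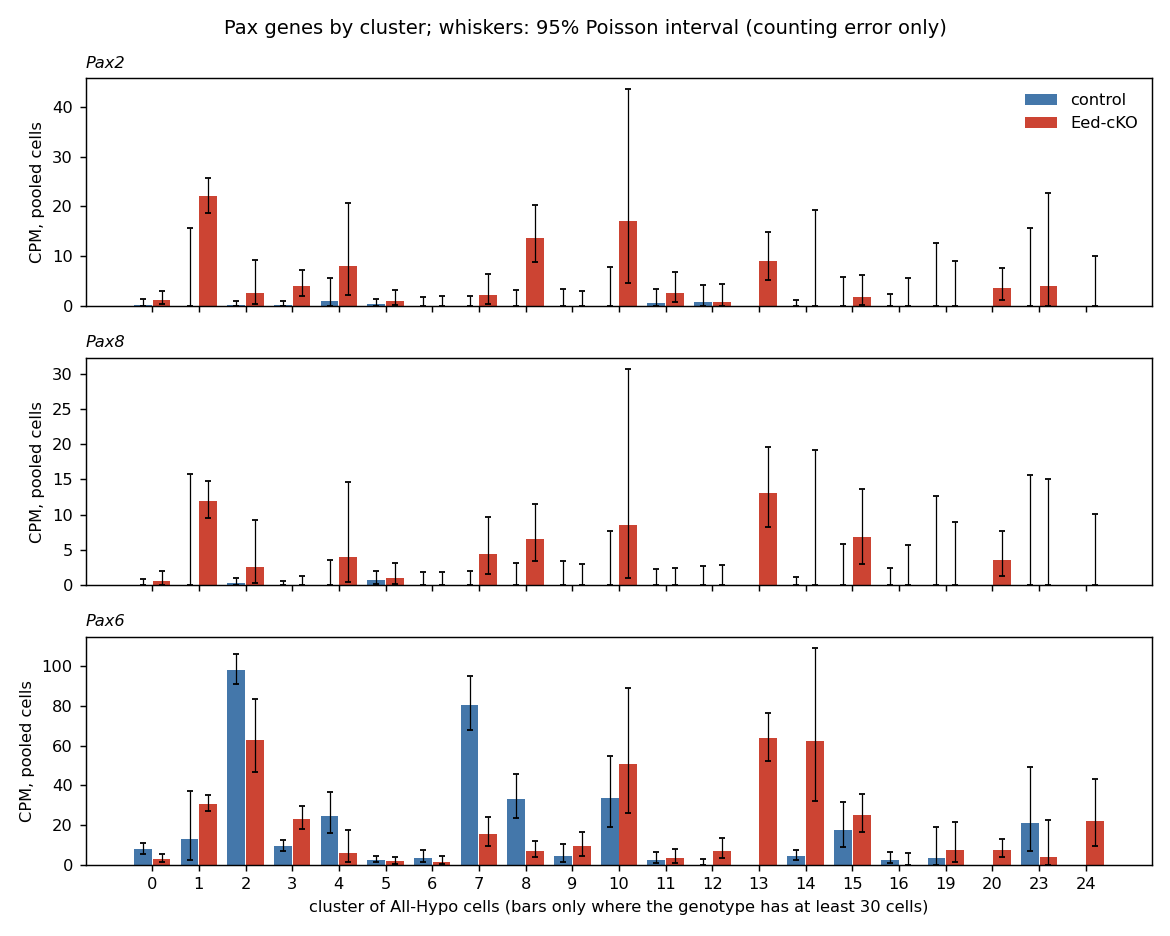
*Pax2*, *Pax8* and *Pax6* by cluster of All-Hypo cells. The vertical axis is CPM over the pooled cells of a cluster, with bars for control and Eed-cKO and lines for the exact Poisson interval, which covers counting error only, and clusters with at least 30 cells are shown. *Pax2* peaks in Eed-cKO cluster 1 at 22 CPM, and *Pax6* in control cluster 2 at 98.4 CPM.

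In the 8926 cells of the 12 neuron-like clusters 14.8% of genes passed the threshold between genotypes. Clusters 4, 5, 10 and 20 also had 6 general neuronal markers raised, but were left unnamed and were not in this set. Cluster 5 held the control cell with 2 *Pax2* and 4 *Pax8* UMIs. *Pax2* went from 0.210 ± 0.292 to 7.94 ± 2.5 CPM (log2 5.07 ± 0.41, edgeR adjusted p = 1.88e-10) and *Pax8* from 0.0623 ± 0.153 to 4.26 ± 2.20 CPM (5.33 ± 0.58, adjusted p = 7.94e-08). Control held 6 and 2 UMIs of these genes, so that both reached the filter of 15 UMIs only through *Eed-cKO*. *Pax6* fell from 30.2 ± 14.2 to 16.4 ± 10.6 CPM (-0.81 ± 0.28, adjusted p = 0.0469), and missed the threshold with library sizes alone (adjusted p = 0.0618). The genotypes fill these clusters unequally: cluster 2 held 1123 control and 129 *Eed-cKO* cells, and cluster 1 the reverse.

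Most control *Pax6* RNA was in 1 neuronal cluster. Cluster 2, led by *Sp8* and *Esrrg* besides *Pax6* and with raised *Slc32a1*, *Gad1* and *Gad2*, held 651 of the 1021 control *Pax6* UMIs (63.8%). The level within cluster 2 was 109 ± 59.8 CPM in control and 63.7 ± 61.3 CPM in the 6 *Eed-cKO* embryos with at least 10 of its cells. This difference of -0.71 ± 0.37 did not pass the threshold (edgeR adjusted p = 0.415), where 1.77% of genes did. The share of cells of cluster 2 with a *Pax6* UMI was 14.3% in control and 10.9% in *Eed-cKO*.

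*Pax6* was also followed in 2 clusters with astrocyte markers. Cluster 7 held 386 control and 335 *Eed-cKO* cells with 7 raised astrocyte markers, among them *Aqp4* and *Slc1a3*, but was led by *Dio2* and *Frzb* and was left unnamed. Its leading genes also held *Rax*, by which the study marks tanycytes, and the astrocyte marker *Agt*. *Frzb* too was on the list of tanycyte markers used here. Whether its cells are astrocytes or tanycytes was not tested. *Pax6* was at 40.5, 84.4 and 141 CPM in its control embryos at the lowest, median and highest. In *Eed-cKO* 6 of 9 embryos held no *Pax6* UMI there and the highest held 43.2 CPM. The means of 83.9 ± 34.4 and 8.36 ± 15.6 CPM differed by -2.52 ± 0.43 on the log2 scale (edgeR adjusted p = 2.89e-05), where 8.91% of genes passed. In the *Gfap* cluster 13, found almost only in *Eed-cKO*, *Pax6* was at 65.6 ± 38.1 CPM. Over clusters 7 and 13 together the level was 77.9 ± 32.1 CPM in control and 44.5 ± 32.4 CPM in *Eed-cKO*, given without a test, and the ranges overlapped (38.4 to 132 and 10.3 to 120 CPM).

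*Pax2* and *Pax8* were then sought in the same cells. Of the *Eed-cKO* cells, 22 held UMIs of both, which is 11.8% of the 186 *Pax2* cells and 25% of the 88 *Pax8* cells. Cells without *Pax2* held *Pax8* in 1.05% of cases. The 22 cells came from 7 of 9 embryos, 14 were Glut/GABA, 12 were in cluster 1 and 6 in cluster 13, 20 held a Hox UMI, and 1 was marked by the doublet score. In the planned test, on cells thinned to 2000 UMIs, 7 of 74 *Pax2* cells held *Pax8* (9.46%) against 0.634% of the others. Only 4 embryos had at least 10 such cells, and with 4 the exact sign-flip permutation test cannot go below p = 0.125, so that no relation could pass.

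Without thinning, 6 embryos could be tested and the share with *Pax8* was higher among *Pax2* cells in 6 of 6 (mean difference 10.3 ± 6.91 percentage points, exact permutation test, p = 0.0312, adjusted over 17 relations 0.0443). This p is the smallest that 6 embryos can give. *Pax2* cells were deeper, at a median of 5961.5 UMIs against 4382 UMIs, and any gene is found more often in deeper cells. Cells were therefore also set against cells of the same embryo and quartile of depth, as values with no test: 22 were observed where 2.18 would be found at the rate of the matched cells. Within cluster 1 alone, 12 cells held both genes where 3.26 were expected from the shares there.

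Both genes were found mainly in cells with Hox RNA. Hox genes set position along the body axis in hindbrain and spinal cord, in the order of their paralogue numbers, and the 34 Hox genes of the table held 16045 UMIs in *Eed-cKO* and 6 in control All-Hypo. A Hox UMI was found in 169 of 186 *Pax2* cells (90.9%) and in 45.0% of cells without *Pax2*, and the share was higher in 6 of 6 embryos tested (mean difference 47.8 ± 11.3 percentage points, exact permutation test, adjusted p = 0.0443). For *Pax8* it was 80 of 88 cells (90.9%) and 45.7%, higher in 6 of 6 embryos (41.2 ± 9.95 points, adjusted p = 0.0443 in the same permutation test). Matched for depth, the expected counts were 87.6 for *Pax2* and 44.1 for *Pax8*. Cells were matched by embryo and depth and not by cluster, and the part of cluster 1 in these shares was not tested. In thinned cells the shares were 78.4% against 37.2% for *Pax2* and 68.3% against 37.6% for *Pax8*.

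All parts of the Hox clusters were met. Among *Pax2* cells 52.7% held a gene of paralogue groups 1 to 4, 68.8% of groups 5 to 8 and 84.4% of groups 9 to 13, against 20.5%, 27.3% and 37.2% of the other cells. Each of these passed (exact permutation test, adjusted p = 0.0443, higher in 6 of 6 embryos). Among *Pax8* cells the shares were 56.8%, 65.9% and 77.3%, and groups 5 to 8 did not pass (adjusted p = 0.0759 in the permutation test, 5 of 6 embryos). The median number of different Hox genes was 4 in *Pax2* cells and 4 in *Pax8* cells, against 0 in cells without. The single Hox genes found most often with *Pax2* were *Hoxc10* (93 of 186 cells against 16.8%), *Hoxc13* (43.5% against 12.9%) and *Hoxb13* (37.1% against 13.1%). The same 3 led for *Pax8*, at 37.5%, 33.0% and 33.0% against 17.5%, 13.5% and 13.5%. They were also the Hox genes with the most UMIs in *Eed-cKO* (2118, 1663 and 1303), and a preference for single Hox genes was not tested.

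**Figure D4:**
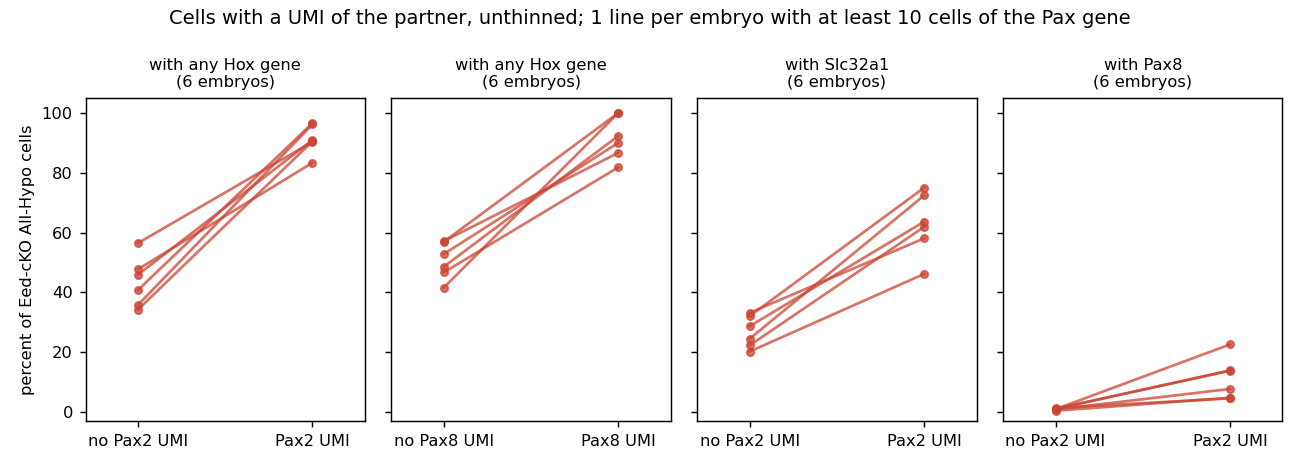
Co-detection in Eed-cKO All-Hypo cells without thinning. Each line joins, for an embryo with at least 10 cells of the Pax gene, the percent of cells with a UMI of the partner among cells without and with the Pax gene. For any Hox gene the pooled shares are 45.0% and 90.9% for *Pax2* and 45.7% and 90.9% for *Pax8*, and lines of all 6 embryos rise.

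**Figure D5:**
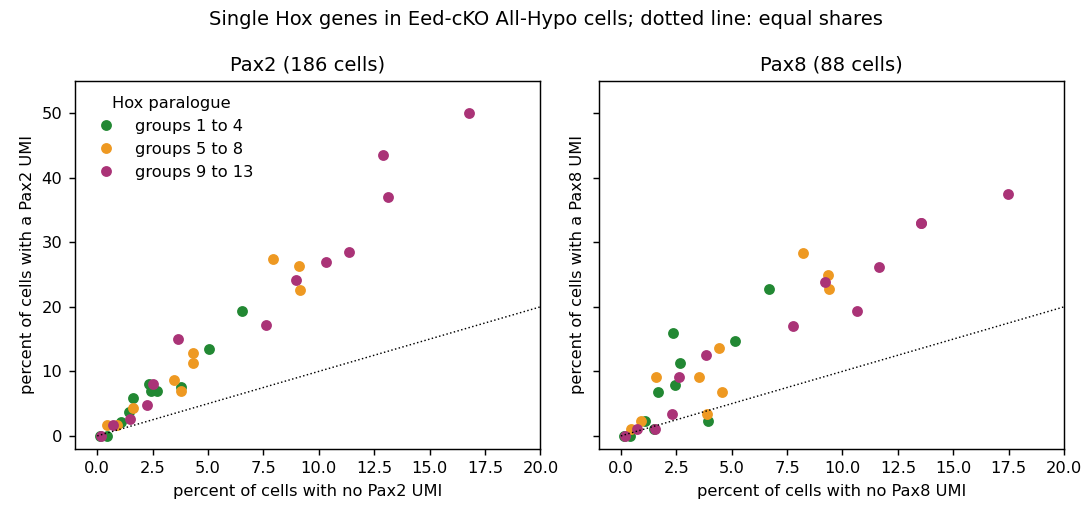
Single Hox genes in Eed-cKO All-Hypo cells with and without *Pax2* (left) or *Pax8* (right). Each point is a Hox gene, with the percent of cells without the Pax gene that hold its UMI on the horizontal axis and the percent of cells with it on the vertical axis, and the dotted line marks equal shares. *Hoxc10* stands highest, at 93 of 186 *Pax2* cells and 37.5% of 88 *Pax8* cells.

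The link of *Pax2* to transmitter genes and to other inhibitory determinants was tested in the same way. *Slc32a1* was found in 62.4% of *Pax2* cells against 26.8% of others, *Slc17a6* in 70.4% against 52.4%, and *Tfap2b*, of inhibitory neurons in hindbrain and spinal cord, in 27.4% against 9.60%. All 3 passed without thinning (exact permutation test, adjusted p = 0.0443). In cells thinned to 2000 UMIs, over 4 embryos, the differences were 11.8 percentage points for *Slc32a1*, 10.9 for *Slc17a6* and 11.7 for *Tfap2b*. Over the other settings *Slc32a1* ran from 1.85 to 38.8 points, *Slc17a6* from 5.92 to 15.7 and *Tfap2b* from 4.72 to 19.3. Matched for depth, *Slc17a6* was found in 131 *Pax2* cells where 113.6 were expected, and *Slc32a1* in 116 where 56.5 were expected. *Lhx5*, which is needed with *Pax2* in dorsal spinal interneurons, was at 15.6% against 11.4% and did not pass (adjusted p = 0.266, permutation test). For *Pax8*, *Slc32a1* passed (44 of 88 cells against 27.5%, adjusted p = 0.0443, permutation test), and *Slc17a6* (61.4% against 52.8%), *Tfap2b* (15.9% against 10.0%) and *Lhx5* (14.8% against 11.4%) did not.

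*Pax6*, which was on in control, was set against the same genes. Only 9 cells held *Pax2* and *Pax6*, where 9.45 were expected from cells matched for embryo and depth. *Pax8* and *Pax6* met in 15 cells where 4.55 were expected. A Hox UMI was found in 186 of 277 *Pax6* cells of *Eed-cKO* (67.1%) where 48.4% were expected. *Pax1* was found with *Pax2* in 21 cells where 4.30 were expected and with *Pax8* in 6 cells where 2.68 were expected, and 128 of its 141 cells (90.8%) held a Hox UMI. Within cluster 1 alone, 16 cells held *Pax1* and *Pax2* where 7.12 were expected from the shares there. These counts carry no test.

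*Pax6* was also looked for beside *Tac2*, the gene of neurokinin B, in neurons that hold both. The pair was taken from the study, which reported the loss of a *Tac2* and *Pax6* cell group from these same E18.5 data. The test below describes that loss per embryo and is no independent evidence for it. Cells with a UMI of both numbered 26 in control, in 6 of 6 embryos, and 3 in *Eed-cKO*, in 3 of 9 embryos. The share of All-Hypo cells was 0.400 ± 0.251% and 0.0496 ± 0.0772% (exact permutation test, adjusted over 2 pairs, p = 0.0024). Of cells with *Tac2*, 23% of 113 held *Pax6* in control and 4.69% of 64 in *Eed-cKO*. With *Th*, the gene of the rate-limiting enzyme of dopamine synthesis, *Pax6* met in 11 cells of each genotype, at 0.165 ± 0.0768% and 0.163 ± 0.165% (adjusted p = 0.967, permutation test).

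The genes whose levels ran most like the Pax genes across the 21 *Eed-cKO* clusters of at least 30 cells were ranked by Pearson's r of log2(CPM + 1). These clusters share their embryos and libraries, and no p is given. For *Pax2* they were *Dmbx1* (0.86), *Barx1* (0.79), *Pax8* (0.79), *Clstn1* (0.78) and *Arhgap4* (0.77). For *Pax8* they were *Hoxb6* (0.85), *Barx1* (0.80), *Hoxc13* (0.80), *Hoxa3* (0.79) and *Pax2* (0.79). For *Pax6* they were *Zic2* (0.74), *Meis1* (0.72), *Slc39a14* (0.71), *Zfp385a* (0.71) and *Mme* (0.70), and *Pax6* itself ran at 0.37 with *Pax2* and 0.49 with *Pax8*.

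The genes that work with Pax factors were counted in lists in the All-Hypo comparison, each beside a median of -0.02 on the log2 scale over all 12558 genes, of which 28.6% were called (1776 higher and 1818 lower). The Eya proteins and their Six-family partners form with *Pax2* the network that patterns kidney and ear. Of 16 tested partners 7 rose and none fell (median 0.29). *Six2* (4.68 ± 0.49), *Eya1* (2.44 ± 0.22), *Six5* (1.5 ± 0.31), *Eya2* (0.80 ± 0.25) and *Six6* (0.55 ± 0.14) were among those that rose on the log2 scale, and 9 partners did not pass.

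Of 7 tested genes of the midbrain-hindbrain boundary, where *Pax2* is an early factor, 4 rose and 1 fell (median 0.70), again beside 28.6% of all genes called. *En2* rose by 2.13 ± 0.24, *Otx2* by 1.3 ± 0.24, *En1* by 1.18 ± 0.33 and *Spry1* by 0.70 ± 0.11, and *Gbx2* changed by -2.15 ± 0.60. The thalamic cluster led by *Gbx2* had 337 control and 36 *Eed-cKO* cells, and its part in the fall of *Gbx2* was not tested. Of 12 tested determinants of dorsal inhibitory neurons 4 rose and 2 fell (median 0.20), beside the same 28.6%. Among them *Tfap2a* rose by 4.72 ± 0.27, *Tfap2b* by 3.83 ± 0.31 and *Lhx5* by 0.42 ± 0.13, while *Prdm13* changed by -1.31 ± 0.27 and *Gad2* by -0.25 ± 0.07. *Ptf1a*, which acts above *Pax2* in these neurons, was under the filter with 1 UMI in control and 39 in *Eed-cKO*.

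Of 6 tested genes of excitatory neurons 1 rose, *Pou4f1* by 1.66 ± 0.47 (median 0.11, beside 28.6% of all genes called), and *Tlx1* and *Tlx3* were under the filter with 0 and 2 UMIs in control and 121 and 92 UMIs in *Eed-cKO*. Of 8 tested genes of the eye field and optic stalk 6 rose and none fell (median 1.79), where 28.6% of all genes were called. *Vax2*, of the ventral eye, went from no UMI to 972 UMIs, a pooled level 352-fold higher with control set at 3 UMIs. *Tbx5*, of the dorsal eye, rose by 6.79 ± 0.40 from 2 UMIs, *Mab21l2* by 2.47 ± 0.20, *Rax* by 1.93 ± 0.32, *Mab21l1* by 1.64 ± 0.23 and *Lhx2* by 0.97 ± 0.17. Of 6 tested genes that work beside *Pax2* and *Pax8* in kidney, thyroid or ear 4 rose and 1 fell (median 0.69), set against the same 28.6%. They were *Gata3* (2.60 ± 0.30), *Wt1* (1.79 ± 0.28), *Sall1* (1.01 ± 0.25) and *Emx2* (0.36 ± 0.13), with *Ret*, the receptor of the kidney's branching signal, at -0.53 ± 0.17.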

How the data were processed

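Single cells of E18.5 hypothalamus were captured by droplets (ddSEQ) and sequenced from the 3′ end in 48 libraries. Raw UMI counts were deposited by the authors as 1 table of genes by cells, from the SureCell pipeline. The submitters' processing notes name STAR 2.5.2b, SAMtools 1.3 and mm10. The deposited table held 14121 cells and 16510 genes, with no cell under 601 UMIs. The Pax genes and the gene lists were chosen with earlier results of these data known.

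Cells were clustered in scanpy 1.11.5 (Python 3.11.15) without Pax and Hox genes (counts scaled to 10000, 2000 variable genes, 30 components, 15 neighbours, resolution 1, seed 0), giving 26 clusters. A cluster was named from at least 3 raised markers. Vascular, leptomeningeal and microglial clusters (828 cells) were removed, which left 13293 All-Hypo cells. Doublets were not removed in the main results, and 6% of cells were marked by Scrublet for an alternative.

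Raw counts were summed per embryo. Genotypes were compared with edgeR 4.0.16 (R 4.3.3), quasi-likelihood F test, TMM scaling and Benjamini-Hochberg adjustment over all genes tested, with a threshold of 0.05. Genes needed 15 UMIs in all, a highest sum of 2 and, in All-Hypo, a median of 1.5 log2 CPM. Embryos with under 10 cells of a kind were left out of its fit. Class contrasts within a genotype had the embryo as a block. SE was the fold change divided by the square root of F. Genes under the filter and shares of cells were tested by exact permutation over embryos (5005 splits), and co-detection by sign flips over Eed-cKO embryos, both two-sided, in scipy 1.17.1. Thinning to 2000 UMIs left out 1231 control and 1015 Eed-cKO cells. DESeq2 1.42.0 and limma 3.58.1 (TREAT at 0.18, the study's choice) were alternatives, as were other filters, scalings and cell sets, and leaving out each embryo. The scripts were tested on simulated data. The named genes were the Pax genes, the 5 genes of highest r with each, and, of the list genes past the threshold, at most 6 a list by size of change; Ptf1a, Tlx1 and Tlx3, which were under the filter, were named after their values were seen. Some genes that the rule names are not reported here. The fold for a gene at 0 in control used 3 UMIs over that group and left out counting error in Eed-cKO and the spread between embryos. Genome positions are from GENCODE vM21 on mm10. The labels give embryo numbers only through library names, so that p-values measure the spread between these embryos.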

Additional observations from a re-analysis of the deposited data

Results flagged for a closer look

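Of 41 groups of embryos screened for a value far from the others, 9 held one by the limits of Dixon's test. A group in which only 1 embryo held a UMI was always flagged, and several of these genes were near the floor. The number of flags can therefore not be set against a rate expected by chance. In All-Hypo these were *Pax2* in control embryo 4 (0.902 CPM, next 0.196 CPM), *Pax8* in the same embryo (0.902 CPM, the others at 0), *Pax1* in control embryo 2 (0.391 CPM, the others at 0), *Pax7* in control embryo 6 (0.648 CPM, next 0.196 CPM), *Pax3* in *Eed-cKO* embryo 7 (2.41 CPM, next 0.924 CPM) and *Pax7* in *Eed-cKO* embryo 9 (1.53 CPM, next 0.402 CPM). The *Pax7* value of embryo 9 stands for 1 UMI in the shallowest embryo. In Glut cells *Eed-cKO* embryo 7 was highest for *Pax8* (6.84 CPM, next 1.64 CPM) and for *Pax1* (7.70 CPM, next 3.08 CPM). In Glut/GABA cells control embryo 6 was highest for *Pax6* (118 CPM, next 34.4 CPM).

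The *Pax6* class differences were flagged because they differed between genotypes in a test of the difference itself. GABA minus Glut differed by -3.04 and GABA minus Glut/GABA by -2.13 on log2(CPM + 1), *Eed-cKO* minus control (exact permutation test, adjusted p = 0.0318 for both). Both rest in part on *Eed-cKO* embryos 6 and 9, at 0 CPM in GABA cells.

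*Pax9* was found in the removed non-neural cells of *Eed-cKO*, which the comparisons did not use. It was in 9 of 480 cells (1.88%), 8 of them in the leptomeningeal-like cluster 17, and in 0 of 348 control cells, which allows a share of cells with a UMI of up to 0.862%, by counting error only. That cluster held 251 *Eed-cKO* and 64 control cells.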

How the results depend on the processing

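*Pax2* in All-Hypo stayed past the threshold with each embryo left out (log2 fold change 4.38 to 5.75) and in the other settings where it was tested (3.96 to 4.81). *Pax8* ran from 4.29 to 7.35 in the 7 of 15 fits without an embryo in which it passed the filter, and from 4.42 to 4.79 in other settings; it was not tested in the limma fit of libraries or in thinned cells. *Pax6* passed when sums were taken over the leading code of the library names (-0.68, adjusted p = 0.0239), with all cells (-0.75, 0.0438), without doublet scores (-0.88, 0.0186) and in thinned cells (-0.91, 0.0190). Without single embryos it ran from -0.91 to -0.51 and passed in 4 of 15 fits. Genes called lower were 1818, against 1121 with library size alone, 871 with limma and 1139 in thinned cells, and 1432 to 2102 without single embryos.

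With 2 UMIs asked of a transmitter gene, Glut/GABA fold changes of 6.02 (*Pax2*) and 5.67 (*Pax8*) no longer passed. The *Pax1* call in Glut/GABA cells was also lost in 1 of 3 other settings (edgeR adjusted p = 0.172). Thinning ended most calls within genotypes; *Pax6* in GABA against Glut stayed past the threshold in control (1.87), as did *Pax1* in Glut/GABA against Glut in *Eed-cKO* (2.38, edgeR adjusted p = 0.00593). The calls lost were these. In *Eed-cKO* Glut/GABA against Glut fell to 0.73 (*Pax2*), 2.17 (*Pax8*) and 0.43 (*Pax6*), Glut/GABA against GABA to 2.10 (*Pax8*), and GABA against Glut to 0.52 (*Pax2*) and 0.91 (*Pax6*), and in control Glut/GABA against Glut to 0.52 (*Pax6*). *Pax6* in Glut/GABA against GABA changed sign, to -0.48 thinned and -0.34 without doublet scores, and never passed. Without doublet scores *Pax2* passed in Glut/GABA against GABA (1.10) and not in GABA against Glut (1.17). *Pax6* in neuron-like clusters was at -0.77 with library size alone. The cause of these changes was not tested.

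Co-detection with *Pax2* passed only without thinning, where 6 rather than 4 embryos entered: 10.3 percentage points for *Pax8*, 47.8 for any Hox gene, 31.9, 42.0 and 49.3 for Hox groups 1 to 4, 5 to 8 and 9 to 13, 36.1 for *Slc32a1*, 15.7 for *Slc17a6* and 19.3 for *Tfap2b*. Over the settings other than the planned one, *Slc32a1* ran from 1.85 to 38.8 points and any Hox gene from 37.6 to 47.8 points. In cells thinned to 4000 UMIs *Lhx5* turned to -2.16 points. With at least 5 thinned cells an embryo, chosen after seeing the data, no relation had an adjusted p under 0.0664 (exact permutation test). Leaving out an embryo, *Pax6* with *Th* ran from -0.0420 to 0.0229 percentage points, *Pax7* from -0.0660 to 0.182 CPM, and the *Pax6* class differences from -3.42 to -2.54 and from -2.46 to -1.69. The tests of cluster 2, of *Pax1* and of the class differences, the fit without the cluster led by *Ttr* and *Cga*, and the values matched for depth were also chosen after seeing the data. No paired analysis was possible because the embryo numbers follow accession order and no animal is shared between genotypes. At a few UMIs per embryo, *Pax3*, *Pax7* and *Pax9* are limited by depth.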

Other observations

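*Pax6* was also found in the cluster with thalamic markers, at 62.6 CPM over 36 pooled *Eed-cKO* cells (9 cells with a UMI) and at 4.40 CPM over 337 control cells (4 cells with a UMI). Only 1 *Eed-cKO* embryo held at least 10 of these cells, and no test was made. In the cycling progenitor-like cluster *Pax6* was at 25 CPM over 211 *Eed-cKO* cells and at 17.6 CPM over 149 control cells, with counting intervals that overlap (16.8 to 35.9 and 8.76 to 31.4 CPM).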
